A study of Homo sapiens with 6 samples.

Results

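The 8 miRNAs described here are those best known from neurons, namely both arms of miR-132 and of its partner miR-212, hsa-miR-138-5p, hsa-miR-9-5p, hsa-miR-124-3p and hsa-miR-128-3p. They were chosen by name, with earlier results of these libraries already known, and all 8 occur among the 832 miRNAs counted in extracellular vesicles (EVs) of MDA-MB-231 cells. Separating well-counted members from near-absent ones was done on their own read counts, so the levels that made this split are a description. EVs were collected from 2 forms of MDA-MB-231, a human triple-negative breast cancer line of mesenchymal character: wild-type cells (231 EV, n = 3) and cells with ACO1 knockdown (231 ACO1KD EV, n = 3). Both were grown in DMEM with 10% fetal bovine serum, and EVs were pelleted from EV-free medium at 110000 g for 70 min. How the knockdown was made, whether it is a single clone and whether the 231 EV cells carried a control vector are not given in the sources used here. Effects of a vector or of selection can therefore not be told apart from the knockdown. ACO1 encodes the cytosolic aconitase that, without its iron-sulfur cluster, binds RNA as iron regulatory protein 1. The comparison asks which miRNAs are at another level in EVs when ACO1 is low. No library of the cells themselves was included, so a changed level in the cells and changed export cannot be told apart. Small RNA libraries do not measure ACO1 mRNA, so the knockdown itself was not checked in them.

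A miRNA is cut from a hairpin precursor that can yield a mature strand from its 5′ side (5p) and from its 3′ side (3p), and the strand loaded into Argonaute finds its target mRNAs mainly through bases 2 to 8, the seed. In the brain, miR-132 and miR-212 are transcribed together after neuronal activity through CREB, miR-138 acts at dendritic spines, and miR-128 restrains neuronal excitability. miR-9 acts in neural progenitors and their differentiation, and miR-124 is the classic miRNA of differentiated neurons. Several of them are also made by other tissues and by tumour cells.

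Mature sequences from RefSeq (GRCh38.p14) were matched by miRNA name for 7 of the 8 members. They are shown because the family structure of the list rests on them, 5′ to 3′, with the seed in capitals:

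hsa-miR-132-3p: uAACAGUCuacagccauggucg
hsa-miR-212-3p: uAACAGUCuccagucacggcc
hsa-miR-132-5p: aCCGUGGCuuucgauuguuacu
hsa-miR-212-5p: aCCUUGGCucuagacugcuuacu
hsa-miR-138-5p: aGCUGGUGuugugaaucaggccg
hsa-miR-128-3p: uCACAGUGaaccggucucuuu
hsa-miR-9-5p: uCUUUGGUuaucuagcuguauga

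These 7 sequences are 21 to 23 bases long and carry 6 distinct seeds. A seed is shared within the list by hsa-miR-132-3p and hsa-miR-212-3p alone, whose first 9 bases and 17 of 21 positions are identical. Their 5p arms share 14 of 22 positions and differ in the seed by G4U, counted from 1 at the 5′ end with the miR-132 base first. Among the other miRNAs in the table, hsa-miR-216a-3p and hsa-miR-3681-3p share the seed of hsa-miR-128-3p, with 2 and 3 reads over all 6 libraries. The letters CAUUG occur in 0 of the 7 member sequences, against 21 of the 715 miRNAs in the table with a sequence (2.94%).

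On GRCh38, with coordinates counted from 1 and genes from GENCODE release 29, the hairpins MIR132 (chr17:2049908-2050008) and MIR212 (chr17:2050271-2050380) lie 262 bases apart on the minus strand, between annotated genes. hsa-miR-138-5p is encoded identically by MIR138-1 (chr3:44114234-44114256, plus strand) and MIR138-2 (chr16:56858527-56858549, plus strand), both between annotated genes. hsa-miR-128-3p comes from MIR128-1 in an intron of R3HDM1 (chr2:135665446-135665466, plus strand) and MIR128-2 in an intron of ARPP21 (chr3:35744527-35744547, plus strand). hsa-miR-9-5p comes from MIR9-1 in an intron of C1orf61 (chr1:156420392-156420414, minus strand), MIR9-2 in an exon of the long noncoding RNA LINC00461 (chr5:88666902-88666924, minus strand) and MIR9-3 in an intron of MIR9-3HG (chr15:89368032-89368054, plus strand). Reads of a mature miRNA with several hairpins cannot be assigned to any of them.

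The deposited table gives the number of reads on each miRNA and a TPM, in which each library sums to the same total and length plays no part. Total counts were 224948 to 230562 in 231 EV and 67873 to 175924 in 231 ACO1KD EV, so that 1 read was worth 4.34 to 4.45 TPM in the former and 5.68 to 14.7 TPM in the latter. The knockdown replicate 3 stood apart from its group. Counts over all miRNAs differed between it and replicates 1 and 2 with a chi-square per degree of freedom of 28.1 and 22.0, against 8.91 between those 2 and 4.22 to 5.18 among the 231 EV libraries. The labelled cell line was checked against its miRNAs: hsa-miR-21-5p, hsa-miR-221-3p and hsa-miR-222-3p, abundant in such lines, made up 30.4% to 33.2% of reads in 231 EV and 13.0% to 20.3% in 231 ACO1KD EV. The 6 epithelial miR-200 and miR-205 miRNAs that the line is known to lack made up 0.0858% to 0.0985% in 231 EV and 0.0619% to 0.0992% in 231 ACO1KD EV. They were thus low but not absent, so this part of the check was not met. hsa-miR-205-5p alone had 538, 499 and 484 TPM in 231 EV and 222, 250.5 and 521 TPM in 231 ACO1KD EV. Its source was not tested. Each member's counts in 231 ACO1KD EV were compared with those in 231 EV in edgeR's quasi-likelihood framework, with TMM scaling and Benjamini-Hochberg adjustment over the 517 miRNAs tested. No label says that replicates came from separate cultures, so p-values measure only the spread between these libraries. In such bulk preparations, fewer EVs that carry a miRNA and less of it per EV cannot be told apart.

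The 8 members together held 8710 reads, 0.805% of all, and 89.5% of these belonged to hsa-miR-138-5p and hsa-miR-128-3p. A mean of at least 10 reads per library separated 4 well-counted members, hsa-miR-138-5p, hsa-miR-128-3p, hsa-miR-132-3p and hsa-miR-9-5p. The lowest member inside this limit was hsa-miR-9-5p with a mean of 68.5 reads, and the highest outside it was hsa-miR-132-5p with 7.83. hsa-miR-124-3p, at a mean of 1.0, was sparsely counted like hsa-miR-132-5p. hsa-miR-212-3p (mean 0.833) and hsa-miR-212-5p (mean 0.333) were near-absent.

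Among the 7 members tested, hsa-miR-138-5p and hsa-miR-132-3p were lower and hsa-miR-128-3p was higher in 231 ACO1KD EV at an adjusted p under 0.05, while 4 were not called. For each of the 3 called members, and for hsa-miR-132-5p, an exact two-sided permutation test of log2(TPM + 1) gave p = 0.1. That is the smallest p that 3 libraries against 3 allow. Over all tested miRNAs 44 of 517 were called, 8.51% (6.0% lower and 2.51% higher). Of the 226 miRNAs with a mean of at least 10 reads, 42 were called (18.6%). In 82 of the 226 (36.3%) the TMM-scaled values of the groups did not overlap. On this scale hsa-miR-138-5p, hsa-miR-132-3p and hsa-miR-128-3p did not overlap, nor did hsa-miR-132-5p, which had fewer reads. The same held in TPM, the scale of the member values below, for which no share over all miRNAs was counted. The median log2 fold change of the 7 members tested was -1.0, beside -0.03 over all miRNAs tested. That median includes both arms of MIR132 and hsa-miR-212-3p, which had 5 reads in all. The 4 well-counted members did not move together: -1.04 for hsa-miR-132-3p, -1.0 for hsa-miR-138-5p, -0.14 for hsa-miR-9-5p and 0.52 for hsa-miR-128-3p.

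How the libraries are scaled shifts every fold change together. The TPM values and means given below are shares of library totals and are not scaled with TMM. hsa-miR-21-5p alone had 285000, 312300 and 302300 TPM in 231 EV and 121700, 117400 and 184400 in 231 ACO1KD EV. Its log2 fold change was -1.44 with TMM (edgeR adjusted p = 7.14e-31), and its part in the shift was not tested. With library totals in place of TMM, the median log2 fold change of all tested miRNAs was 0.32 instead of -0.03, and 71 of 517 (13.7%) were called, 13 lower and 58 higher. Under those totals 1 member was lower, hsa-miR-138-5p, and 1 higher, hsa-miR-128-3p. Relative to the median of all tested miRNAs, which removes this common shift by construction, the changes were -1.01 with TMM and -1.02 with totals for hsa-miR-132-3p, -0.97 with either for hsa-miR-138-5p, 0.55 and 0.56 for hsa-miR-128-3p and -0.10 with either for hsa-miR-9-5p.

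hsa-miR-132-3p, the guide strand of MIR132, was lower in every knockdown library. It had 114, 101 and 107 reads in 231 EV and 49, 13 and 59 in 231 ACO1KD EV. As TPM these were 507, 438 and 476 against 279, 192 and 375. The groups did not overlap, and the highest knockdown library was replicate 3. The mean of the 3 libraries was 473.5 ± 34.4 TPM (SD) for 231 EV and 281.7 ± 91.8 TPM (SD) for 231 ACO1KD EV. The log2 fold change was -1.04 (standard error 0.26, 95% interval -1.56 to -0.53, adjusted p = 0.00204 by edgeR). Without 231 ACO1KD EV replicate 3 it was -1.31 (edgeR adjusted p = 7.72e-06). The call was kept when any single library was left out, with log2 fold changes from -1.31 to -0.85, and was lost with library totals (-0.70, edgeR adjusted p = 0.0564). By rank of mean TPM, hsa-miR-132-3p stood at place 119 of 832.

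The other arm, hsa-miR-132-5p, had 11, 12 and 14 reads in 231 EV and 3, 2 and 5 in 231 ACO1KD EV. On the TPM scale these gave 48.9, 52.0 and 62.2 against 17.1, 29.5 and 31.8, again without overlap. Its means over 3 libraries each were 54.4 ± 6.96 TPM (SD) and 26.1 ± 7.92 TPM (SD). At this depth the 95% Wilson interval of knockdown replicate 2, from 8.08 to 107 TPM, contained all 231 EV values, and such intervals cover counting error only. Its log2 fold change of -1.43 (standard error 0.65, 95% interval -2.69 to -0.16) did not pass the test, with an edgeR adjusted p = 0.173. It was called in 0 of 16 alternative settings, among them DESeq2, which gave it no adjusted p. Both arms of MIR132 thus had lower values in all knockdown libraries, and only the 3p arm was called.

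The share of 3p reads among the reads of both MIR132 arms does not depend on how libraries are scaled. It was 91.2%, 89.4% and 88.4% in 231 EV and 94.2%, 86.7% and 92.2% in 231 ACO1KD EV. The means of 89.7% ± 1.41 (SD) and 91.0% ± 3.91 (SD, n = 3 each) differed by less than the spread between replicates (exact two-sided permutation p = 0.6, and 0.6 after adjustment over 4 hairpins).

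miR-212, the partner of miR-132 on chromosome 17, was almost not seen. hsa-miR-212-3p had 0, 2 and 2 reads in 231 EV and 1, 0 and 0 in 231 ACO1KD EV, and hsa-miR-212-5p had a single read in each group. Over all libraries 5 reads of hsa-miR-212-3p stood against 443 of hsa-miR-132-3p, so that miR-212 made up 1.12% of their 448 reads (95% exact binomial interval 0.363% to 2.59%). The strands with the same seed thus differed 88.6-fold in reads. Summed over its group, hsa-miR-212-3p was at 5.88 TPM (95% exact Poisson interval 1.60 to 15.1) in 231 EV and 2.49 TPM (0.0631 to 13.9) in 231 ACO1KD EV, and at this depth no difference between the groups could be detected.

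hsa-miR-138-5p was the most abundant member, at place 30 of 832 by mean TPM. It had 1368, 1356 and 1208 reads in 231 EV and 497, 216 and 783 in 231 ACO1KD EV. The corresponding TPM values were 6081, 5881 and 5369 against 2825, 3182 and 4977. All knockdown libraries lay below all 231 EV libraries, but replicate 3 came close, since its 95% Wilson interval of 4641 to 5337 TPM overlapped that of 231 EV replicate 3, 5075 to 5679 TPM. The means (n = 3 each) were 5777 ± 368 TPM (SD) and 3662 ± 1153 TPM (SD). The log2 fold change was -1.0 (standard error 0.15, 95% interval -1.30 to -0.70, adjusted p = 7.47e-09 by edgeR). It was -1.32 without 231 ACO1KD EV replicate 3 (edgeR adjusted p = 6.06e-22) and -0.65 with library totals (edgeR adjusted p = 0.000471). Since edgeR shared 1 quasi-dispersion among all miRNAs, its adjusted p can be too small for a miRNA with such unequal knockdown libraries. hsa-miR-138-5p was called in all 16 alternative settings, with the largest adjusted p = 0.00934 by limma at a pseudocount of 0.1.

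The 3p strands of the MIR138 hairpins differ in sequence and so tell the loci apart, as their mature forms show with the seed in capitals:

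hsa-miR-138-1-3p: gCUACUUCacaacaccagggcc
hsa-miR-138-2-3p: gCUAUUUCacgacaccaggguu

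hsa-miR-138-1-3p, from chromosome 3, had 80 of the 81 reads on a 3p strand (98.8%, 95% exact binomial interval 93.3% to 99.97%), and hsa-miR-138-2-3p, from chromosome 16, had 1. These reads describe only the 3p strands and do not say which hairpin gave the 5p reads. hsa-miR-138-1-3p had 7, 16 and 20 reads in 231 EV and 17, 4 and 16 in 231 ACO1KD EV, that is 31.1, 69.4 and 88.9 against 96.6, 58.9 and 101.7 TPM. Its groups overlapped, and its log2 fold change of 0.17 (standard error 0.44, 95% interval -0.69 to 1.03, edgeR adjusted p = 0.901) did not pass the test. The 3p share of hsa-miR-138-5p and hsa-miR-138-1-3p together was 0.509%, 1.17% and 1.63% in 231 EV and 3.31%, 1.82% and 2.0% in 231 ACO1KD EV. These did not overlap, but the exact two-sided permutation p = 0.1 is the smallest that 3 libraries against 3 allow, and it was 0.4 after adjustment over 4 hairpins.

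hsa-miR-128-3p moved the other way. It had 399, 396 and 354 reads in 231 EV and 558, 234 and 427 in 231 ACO1KD EV. In TPM, 1774, 1718 and 1573 stood against 3172, 3448 and 2714, with every knockdown library above every 231 EV library and replicate 3 the lowest of the knockdown libraries. Mean levels (n = 3 each) were 1688 ± 103 TPM (SD) and 3111 ± 371 TPM (SD), which put it at place 50 of 832. The log2 fold change was 0.52 (standard error 0.17, 95% interval 0.19 to 0.86, adjusted p = 0.0295 by edgeR) and 0.88 with library totals (edgeR adjusted p = 1.4e-05). Its call was the least stable of the 3. It was lost, at edgeR adjusted p = 0.15, without 231 EV replicate 1 or replicate 2, at 0.176 without 231 EV replicate 3, at 0.0923 without 231 ACO1KD EV replicate 1 and at 0.0639 without replicate 2, although the log2 fold change stayed between 0.49 and 0.59. Without 231 ACO1KD EV replicate 3 it was 0.59 (edgeR adjusted p = 0.000387). With no filter on low counts the edgeR adjusted p was 0.0561. The passenger strand hsa-miR-128-1-5p had 1 read in 231 EV and 4 in 231 ACO1KD EV over all replicates. Of 6 such other arms of the members' hairpins, 4 were in the table and 3 were tested, of which 0 were called. Over all 517 tested miRNAs the share called was 8.51%. With 3 tested, 0 calls cannot be told apart from that share.

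**Figure D1:**
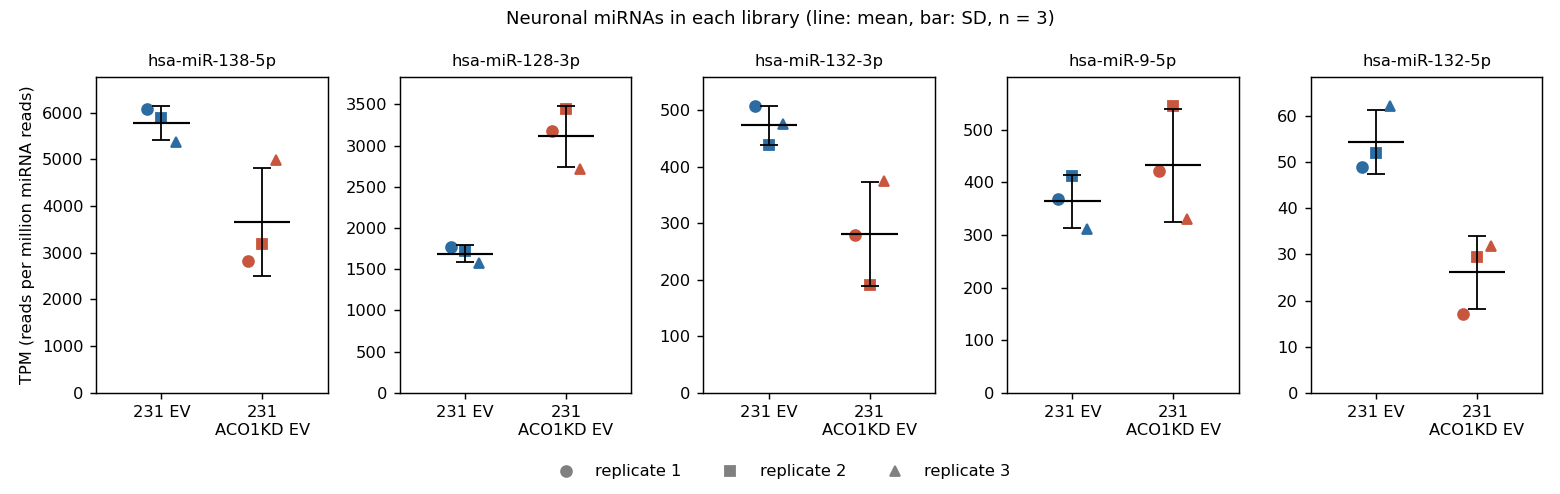
TPM of the well-counted members and of hsa-miR-132-5p in each library (linear axes from 0, 1 panel per miRNA), with lines for the group mean, bars for 1 SD (n = 3) and shapes for replicates. hsa-miR-132-3p, hsa-miR-132-5p and hsa-miR-138-5p are lower and hsa-miR-128-3p is higher in every 231 ACO1KD EV library, while the groups of hsa-miR-9-5p overlap.

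hsa-miR-9-5p had 83, 95 and 70 reads in 231 EV and 74, 37 and 52 in 231 ACO1KD EV, or 369, 412 and 311 against 421, 545 and 331 TPM. The groups overlapped, and their means (n = 3 each) were 364 ± 50.7 TPM (SD) and 432 ± 108 TPM (SD). The log2 fold change was -0.14 (standard error 0.26, 95% interval -0.64 to 0.37, edgeR adjusted p = 0.839) and its sign turned with library totals, where it was 0.22 (edgeR adjusted p = 0.658). The interval leaves room for a moderate change in either direction. Its other arm, hsa-miR-9-3p, had 5, 6 and 7 reads in 231 EV and 3, 0 and 5 in 231 ACO1KD EV (log2 fold change -0.76, standard error 0.82, edgeR adjusted p = 0.733). The 3p share of MIR9 reads was 6.90% ± 1.90 (SD) and 4.22% ± 4.40 (SD, n = 3 each), which did not differ beyond the spread (exact two-sided permutation p = 0.4, adjusted 0.533). The 5p arm thus gave most miR-9 reads in both groups.

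hsa-miR-124-3p had 0, 1 and 2 reads in 231 EV and 1, 0 and 2 in 231 ACO1KD EV. Its 3 reads in each group corresponded to 4.41 TPM (95% exact Poisson interval 0.909 to 12.9) and 7.48 TPM (1.54 to 21.9), and a difference was not detectable at this depth. The 5 neuron miRNAs hsa-miR-124-3p, hsa-miR-9-5p, hsa-miR-9-3p, hsa-miR-137-3p and hsa-miR-129-5p together made up 0.0360% to 0.0473% of reads in 231 EV and 0.0413% to 0.0545% in 231 ACO1KD EV, mostly hsa-miR-9-5p. None of the 5 was at 0 in all libraries.

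**Figure D2:**
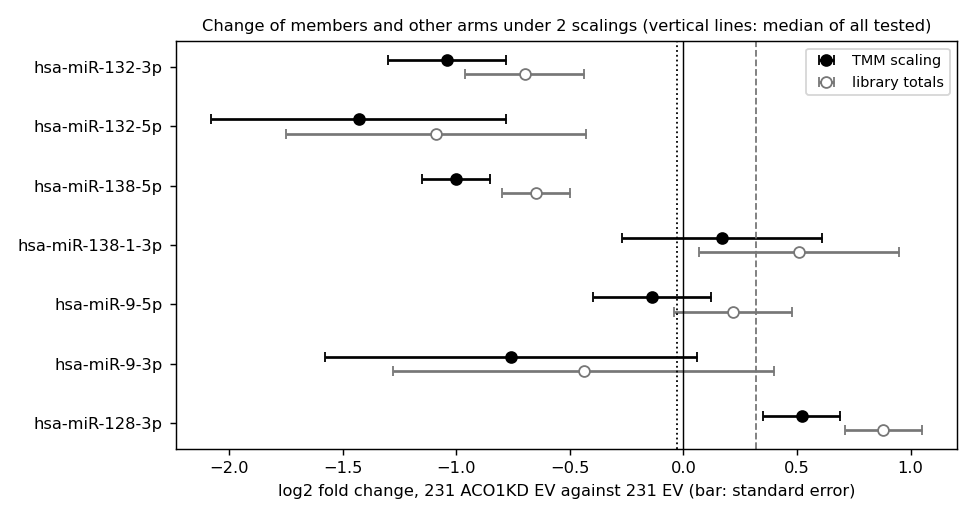
Log2 fold change of 231 ACO1KD EV against 231 EV for 5 members and 2 other arms, with bars of 1 standard error, under TMM scaling (filled) and library totals (open). The dotted and dashed vertical lines mark the median of all tested miRNAs, -0.03 and 0.32: hsa-miR-132-3p and hsa-miR-138-5p lie left of their medians and hsa-miR-128-3p right under either scaling.

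Ratios between members within a library are free of scaling. In 3 of the 6 pairs of well-counted members they did not overlap between groups, beside 9184 of 25425 pairs (36.1%) among all 226 miRNAs with a mean of at least 10 reads. The 6 pairs share their members, and all 3 of these contain hsa-miR-128-3p, so the count is a description and adds nothing to the single changes above. The ratio of hsa-miR-138-5p to hsa-miR-128-3p was 3.43, 3.42 and 3.41 in 231 EV and 0.891, 0.923 and 1.83 in 231 ACO1KD EV. It was nearly constant among the 231 EV libraries, and it was below 1 in knockdown replicates 1 and 2, where hsa-miR-128-3p had more reads than hsa-miR-138-5p. The mean log2 ratio differed by -1.58 between groups, so that the ratio in 231 ACO1KD EV was 0.335 of that in 231 EV. Without 231 ACO1KD EV replicate 3 the log2 difference was -1.91.

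The ratio of hsa-miR-128-3p to hsa-miR-132-3p was 3.49, 3.91 and 3.30 in 231 EV and 11.3, 17.4 and 7.19 in 231 ACO1KD EV, a log2 difference of 1.66 (1.98 without knockdown replicate 3). That of hsa-miR-128-3p to hsa-miR-9-5p differed by 0.64 on the log2 scale, higher in 231 ACO1KD EV. Each of these 3 pairs had an exact two-sided permutation p = 0.1, the smallest possible, and 0.2 after adjustment over the 6 pairs. The ratio of hsa-miR-138-5p to hsa-miR-132-3p did not differ beyond the spread, with log2 values of 3.60 ± 0.13 (SD) and 3.68 ± 0.34 (SD, n = 3 each), a difference of 0.08 (exact two-sided permutation p = 0.8). Against hsa-miR-9-5p, the log2 ratios of hsa-miR-138-5p and hsa-miR-132-3p differed by -0.93 and -1.01 between groups (exact two-sided permutation p = 0.2 for each, adjusted 0.24), with overlapping groups.

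For the 4 well-counted members, likeness to other miRNAs was measured as Pearson's r of log2 CPM with TMM scaling across the 6 libraries, among 225 candidates with a mean of at least 10 reads. The points share groups and scaling factors, so r is a description. hsa-miR-138-5p and hsa-miR-132-3p had an r of 0.94 with each other, and hsa-miR-128-3p had -0.97 and -0.94 with them. Most like hsa-miR-138-5p were hsa-miR-24-3p (0.995), hsa-miR-32-5p (0.994) and hsa-miR-425-5p (0.988), and most like hsa-miR-132-3p were hsa-miR-181a-5p (0.983), hsa-miR-10a-5p (0.978) and hsa-miR-32-5p (0.967). The nearest to hsa-miR-128-3p were hsa-miR-126-3p (0.992), hsa-miR-224-5p (0.973) and hsa-miR-223-3p (0.967). hsa-miR-9-5p followed none of the other members, with r from -0.16 to -0.04, and its nearest were hsa-miR-1468-5p (0.910), hsa-miR-421 (0.868) and hsa-miR-183-5p (0.805).

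Apart from hsa-miR-224-5p, the miRNAs nearest to hsa-miR-128-3p are best known from endothelium, platelets and myeloid cells. The level of blood miRNAs is therefore given beside the rise of hsa-miR-128-3p. All 7 listed blood miRNAs were in the table, led by hsa-miR-142-3p, and together they made up 1.04% to 1.17% of reads in 231 EV and 1.51% to 1.64% in 231 ACO1KD EV. These are shares of library totals, under which the median log2 fold change of all tested miRNAs was 0.32. Scaled with TMM, the leading hsa-miR-142-3p had a log2 fold change of 0.10 (edgeR adjusted p = 0.799). With TMM, hsa-miR-223-3p (0.51, edgeR adjusted p = 0.0226) and hsa-miR-150-5p (0.72, edgeR adjusted p = 0.0215) were higher, whereas the red cell miRNAs hsa-miR-451a (-0.94, edgeR adjusted p = 0.000136) and hsa-miR-486-5p (-1.08, edgeR adjusted p = 0.000928) were lower on the log2 scale, and 3 were not called (hsa-miR-142-3p, hsa-miR-142-5p and hsa-miR-144-3p). Their part in the rise of hsa-miR-128-3p was not tested.

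Of 18 other miRNAs known from neurons or brain, 16 were in the table, and only hsa-miR-7-5p and hsa-miR-218-5p had a mean of at least 10 reads. Of the 8 tested, 0 were lower and 1 was higher, with a median log2 fold change of 0.18 beside -0.03 over all miRNAs tested. Over all 517 tested miRNAs 8.51% were called, 6.0% lower and 2.51% higher. With 8 tested, 1 call cannot be told apart from that share. hsa-miR-7-5p, abundant in neurosecretory cells, had 2441, 2498 and 2662 TPM in 231 EV and 5713, 4582 and 3439 in 231 ACO1KD EV, again with knockdown replicate 3 nearest to 231 EV. In CPM with TMM scaling its groups overlapped, at 3169 in 231 EV replicate 3 and 3150 in 231 ACO1KD EV replicate 3. Its log2 fold change of 0.49 (standard error 0.16, edgeR adjusted p = 0.0288) was no longer called at 0.43 without 231 EV replicate 1 (edgeR adjusted p = 0.245), at 0.47 without replicate 2 (0.178) and at 0.57 without replicate 3 (0.0901), or at 0.50 with no filter (0.0544). Without 231 ACO1KD EV replicate 1 it was down to 0.28 (edgeR adjusted p = 0.465). hsa-miR-218-5p, a miRNA of motor neurons, had 533, 477 and 502 TPM against 961, 678 and 807. With TMM scaling its groups overlapped too, at 597.7 CPM in 231 EV replicate 3 and 565.9 CPM in 231 ACO1KD EV replicate 2. Its log2 fold change of 0.36 (standard error 0.23, edgeR adjusted p = 0.451) did not pass with TMM and was 0.70 with library totals (edgeR adjusted p = 0.0245). The remaining 14 of the 16 were sparse (6) or near-absent (8).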

How the data were processed

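Small RNA libraries of EVs were sequenced, 3 for 231 EV and 3 for 231 ACO1KD EV. The authors kept reads of 18 to 32 nt, removed other RNA classes with Rfam 10.1, identified known miRNAs by miRBase 21 and others by hairpin prediction, and the submitters' processing notes also name Bowtie2, StringTie and hg38. They deposited raw read counts and TPM values per miRNA, and no value column was left unused. Reads carry no molecular identifiers.

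Counts were tested with edgeR 4.0.16 (R 4.3.3), quasi-likelihood, TMM, no covariates, for miRNAs seen in at least 3 of 6 libraries. The common dispersion was 0.0433 (biological coefficient of variation 20.8%), and all miRNAs shared 1 quasi-dispersion, so a miRNA that varies more than others gets too small a p. Scripts were tested on simulated data. Permutation tests, of TPM plus 1 on the log2 scale, shares and ratios (0.5 added to each count), were exact (scipy 1.17.1). Alternatives were library totals, DESeq2 1.42.0, median centring, limma 3.58.1 on log2(TPM + pseudocount) with 0.1, 1 or 10, no filter, a mean TPM of at least 10, edgeR's robust option, a replicate block and each library left out.

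The members and lists were chosen with earlier results of these data known. Named were the 8 members, the other arms of their hairpins, 18 other brain miRNAs (named singly from a mean of 10 reads), seed mates, the 3 most alike miRNAs of each well-counted member and marker lists.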

Additional observations from a re-analysis of the deposited data

How the results depend on the processing

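Beside 44 calls (31 lower, 13 higher), a change of scaling alone gave 71 (13, 58) with library totals and 21 higher with median centring. limma on log2 TPM, which changes both tool and scaling, gave 16, 12 and 16 lower and 59, 45 and 60 higher with pseudocounts of 1, 0.1 and 10 (75 and 76 in all with 1 and 10). A filter at a mean TPM of 10 gave 22 higher. With 1 library left out, calls went from 19 (without 231 EV replicate 3) to 70 (without 231 ACO1KD EV replicate 3), lower ones from 14 to 44 and higher ones from 5 to 26. Of the members, 2 or 3 were called in every setting. hsa-miR-9-5p turned to 0.22 with library totals and 0.23, 0.23 and 0.22 with limma at pseudocounts of 1, 0.1 and 10, and went from -0.27 to 0.0061 with 1 library left out. On the same basis hsa-miR-124-3p went from -0.42 to 1.22, hsa-miR-138-1-3p from -0.19 to 0.53, hsa-miR-219a-5p from -0.34 to 0.77, the difference in MIR132 3p share from -0.24 to 3.54 percentage points (-0.4 with 1 added to each count, 1.36 as reported) and the log2 ratio of hsa-miR-138-5p to hsa-miR-132-3p from -0.08 to 0.26. Other than for library totals and median centring, the cause was not tested.

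No label says that a replicate number marks libraries prepared together. Deviations of same-numbered libraries from their group means correlated at -0.055, -0.041 and 0.12 over 226 miRNAs. No shared effect of a number was thus seen, but such correlations cannot show whether libraries were paired. With a replicate block 44 miRNAs were called (31 lower, 13 higher), and the same 3 members were called. Depth limits hsa-miR-132-5p, hsa-miR-124-3p and both arms of miR-212.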
